A study of Mus musculus with 12 samples.

Results

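Glycolysis and the transcriptional response to low oxygen were examined through 36 genes in C22 mouse club cells, with and without knockdown of Pdcd5 and with and without TGF-β1. The genes were taken by symbol from a list set by pathway membership, which was chosen with earlier results of these data known. They comprise glucose uptake and the steps to fructose bisphosphate, the triose steps to pyruvate, the handling of pyruvate and lactate, glycogen synthase, the oxygen sensors with Hif1a, and genes that HIF induces outside glycolysis. All 36 symbols were among the 23282 rows of gene symbols in the count files, each in a single row, and 34 of them were among the 12425 genes with enough reads to be tested. Eno1 (1 count over the 12 libraries) and Adm (4 counts over the 12 libraries) were not tested.

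RNA-seq libraries were made from C22, a cloned club (Clara) cell line from H-2Kb-tsA58 transgenic mice, whose temperature-sensitive large T antigen lets the cells divide at the permissive temperature with interferon-γ and differentiate when both conditions are withdrawn. The study asked how Pdcd5, a gene first described in programmed cell death, bears on the response of these cells to TGF-β1. There were 4 groups of 3 libraries: negative control cells (NC), NC cells kept for 24 h with TGF-β1 at 20 ng/ml (NC + TGF-β1), cells with siRNA against Pdcd5 (siPdcd5), and siPdcd5 cells given the same TGF-β1 treatment (siPdcd5 + TGF-β1). All 4 groups were cells of the same line, described as differentiated and as deprived of serum before treatment, and no label names a change in oxygen. The differentiated state was not tested, and 6 of 9 club cell markers were at or below 3 counts in every library. Whether the 3 libraries of a group came from separate cultures is not stated, so that p-values measure the spread between these libraries, which may be technical.

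Glycolysis turns glucose into pyruvate in the cytosol, and lactate dehydrogenase and the monocarboxylate transporters pass the surplus on as lactate. Hypoxia-inducible factor (HIF) is made continuously, and its alpha subunit is hydroxylated by the EGLN enzymes when oxygen is present and then destroyed through VHL. When the alpha subunit is spared it binds short hypoxia response elements with the core letters RCGTG and raises glucose transporters, most glycolytic enzymes, PDK1, BNIP3 and carbonic anhydrase 9, and since this control acts on the protein, the Hif1a transcript does not report HIF activity. TGF-β1 is known to raise glycolysis in fibroblasts and epithelial cells in culture, and the club cell is the secretory cell of the small airways.

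The promoters of 5 members are shown, because they let the letters of the hypoxia response core be set beside a rise (4 genes) or a fall (1 gene) after TGF-β1. They are the members called in both TGF-β1 comparisons, apart from Ndrg1, which had no entry, and Pfkl, which lacked ACGTG but held GCGTG once, so that the 5 were chosen for holding ACGTG. Each line is the RefSeq sequence of the 250 bases before the start site, read 5′ to 3′ on the strand of the gene, on build GRCm38.p6. Capitals mark ACGTG on either strand, so that the same core read from the other strand appears as CACGT. Slc2a1 lies at chr4:119108495-119108744 on the plus strand, Hk2 at chr6:82774455-82774704 on the minus strand, Pgam1 at chr19:41911621-41911870 on the plus strand, Slc16a3 at chr11:120948817-120949066 on the plus strand and Slc16a1 at chr3:104638414-104638663 on the plus strand.
Slc2a1: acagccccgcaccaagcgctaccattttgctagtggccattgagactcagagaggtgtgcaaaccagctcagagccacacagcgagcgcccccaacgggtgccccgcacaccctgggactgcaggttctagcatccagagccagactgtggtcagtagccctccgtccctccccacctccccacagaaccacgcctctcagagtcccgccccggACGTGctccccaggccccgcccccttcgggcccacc
Hk2: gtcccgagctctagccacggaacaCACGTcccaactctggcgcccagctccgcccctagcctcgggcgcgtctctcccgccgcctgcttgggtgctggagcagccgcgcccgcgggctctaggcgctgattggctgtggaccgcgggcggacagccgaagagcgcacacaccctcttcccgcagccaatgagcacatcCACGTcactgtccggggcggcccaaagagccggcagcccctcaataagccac
Pgam1: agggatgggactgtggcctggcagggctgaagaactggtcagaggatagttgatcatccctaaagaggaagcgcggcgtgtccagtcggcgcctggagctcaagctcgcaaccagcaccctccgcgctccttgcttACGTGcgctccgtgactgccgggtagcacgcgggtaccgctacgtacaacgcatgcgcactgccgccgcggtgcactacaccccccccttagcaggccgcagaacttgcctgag
Slc16a3: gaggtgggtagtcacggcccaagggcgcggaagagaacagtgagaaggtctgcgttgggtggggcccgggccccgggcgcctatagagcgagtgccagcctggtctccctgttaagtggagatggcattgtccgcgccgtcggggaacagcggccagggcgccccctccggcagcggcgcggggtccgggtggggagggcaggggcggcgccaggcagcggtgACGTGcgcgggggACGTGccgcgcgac
Slc16a1: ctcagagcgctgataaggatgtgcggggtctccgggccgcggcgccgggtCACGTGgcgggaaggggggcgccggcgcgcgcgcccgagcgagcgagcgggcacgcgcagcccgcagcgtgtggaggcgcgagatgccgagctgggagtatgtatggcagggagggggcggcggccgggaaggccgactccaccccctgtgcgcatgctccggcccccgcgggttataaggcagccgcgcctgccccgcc

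Slc2a1 and Pgam1 held ACGTG once in this stretch, in which the other form of the core, GCGTG, is not marked. Hk2 held it at 2 places, the nearer of them 52 to 48 bases before the start. Slc16a3 held 2 copies within the last 27 bases before the start. In Slc16a1 the letters form the palindrome CACGTG, 200 to 195 bases before the start, in which ACGTG is read on both strands and overlaps itself, and which is also the canonical E-box. The whole RefSeq window adds 50 bases after the start. In it 22 of the 34 members with an entry (64.7%) held ACGTG in at least 1 promoter. Over the 27025 genes of the table the share was 21.8%. Counted by promoter, 26 of the members' 51 held it (51%), against 19.6% of all 32851. ACGTG was in 6 of the 7 members with an entry that rose after TGF-β1 and in 2 of the 4 that fell. It was also in 14 of the 21 that were called in neither TGF-β1 comparison. The other form of the core, GCGTG, was in 20 of the 34 members (58.8%), against 35.2% of all genes, and by the same split in 4 of the 7 that rose, 3 of the 4 that fell and 11 of the 21 called in neither. The members' windows were also richer in G and C (median 62.3%) than all windows (median 52.7%). The list also includes genes that HIF induces, so that the members' shares are not independent of how it was chosen. The parts of base composition and of this choice in the shares were not tested. The other 2 members are Ndrg1 and Bnip3l. A match of letters is a description of the sequence and not a binding site.

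Total counts ran from 12809857 to 17714828 per library, and 3 counts, the least taken as detectable, stood for 0.165 to 0.239 CPM, which are counts per library size scaled with TMM factors. Pdcd5 was at 65.1 to 73.5 CPM in the 6 NC and NC + TGF-β1 libraries and at 20.0 to 26.3 CPM in the 6 siPdcd5 libraries with or without TGF-β1, without overlap. Of 9 club cell markers, 6 were at or below 3 counts in every library, among them Scgb1a1, Scgb3a2 and Cyp2f2, and Aldh1a1 was the only one tested (155 to 556 CPM). Of the epithelial markers, Krt8, Krt18 and Foxa2 were present, while Epcam and Nkx2-1 were at or below 1 count in every library, and the collagen gene Col1a1 was at 1700 to 6540 CPM. NC + TGF-β1 replicate 2 lay farthest from the other 2 libraries of its group (root mean square log2 difference 0.501), followed by siPdcd5 replicate 1 (0.427), against 0.302 to 0.4 in the other 10. For the members, counts of calls that change without these 2 libraries are given both ways, and not every added member is named. In bulk RNA, fewer cells of a kind and less RNA per cell cannot be told apart.

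TGF-β1 raised a minority of the glycolytic genes in NC cells, at uptake, at the hexokinase and phosphofructokinase steps, at phosphoglycerate mutase and at lactate export, and it lowered the other lactate transporter and 1 subunit of pyruvate dehydrogenase. By the quasi-likelihood test of edgeR, adjusted over all genes by Benjamini-Hochberg, 6 members rose and 2 fell of 34 tested (23.5%), and 26 did not pass an adjusted p of 0.05. Over all 12425 genes 15.3% were called, 8.57% higher and 6.77% lower. The median log2 fold change was 0.21 over the members and 0 over all genes. In siPdcd5 cells 8 members rose and 3 fell of 34 (32.4%), against 16.1% of all genes, 8.5% higher and 7.61% lower, and the members' median was 0.18 against −0.03 for all genes. The summed level of 6 fibroblast markers, of which Lum was at or below 3 counts in every library, differed between the same groups, at 2740 to 2900 CPM in NC, 5930 to 6590 CPM in NC + TGF-β1, 1850 to 2320 CPM in siPdcd5 and 4530 to 4710 CPM in siPdcd5 + TGF-β1. Nearly all of that sum was Col1a1 (group means 2720, 6120, 1960 and 4560 CPM in the same order), while Dcn had means of 95.7, 22.6, 144 and 41.5 CPM, Col1a2 3.58, 24.7, 12 and 39.5 CPM, and Pdgfra 5.9, 4.61, 5.41 and 3.8 CPM. Their part in the members' changes was not tested. The 2 comparisons share no library. In both of them 7 members were called, each in the same direction: Slc2a1, Hk2, Pfkl, Pgam1, Slc16a3 and Ndrg1 higher, and Slc16a1 lower. The share of all genes called in both is not given here. Agreement between the 2 responses was general, with a Pearson r of their log2 fold changes of 0.93 over the members and 0.75 over all genes. Pdha1 was called only in NC cells and Pfkm, Pgk1, Eno2 and Ldha only in siPdcd5 cells. None of these 5 was called by the test of the difference given further on, which does not show that their responses were equal.

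**Figure D1:**
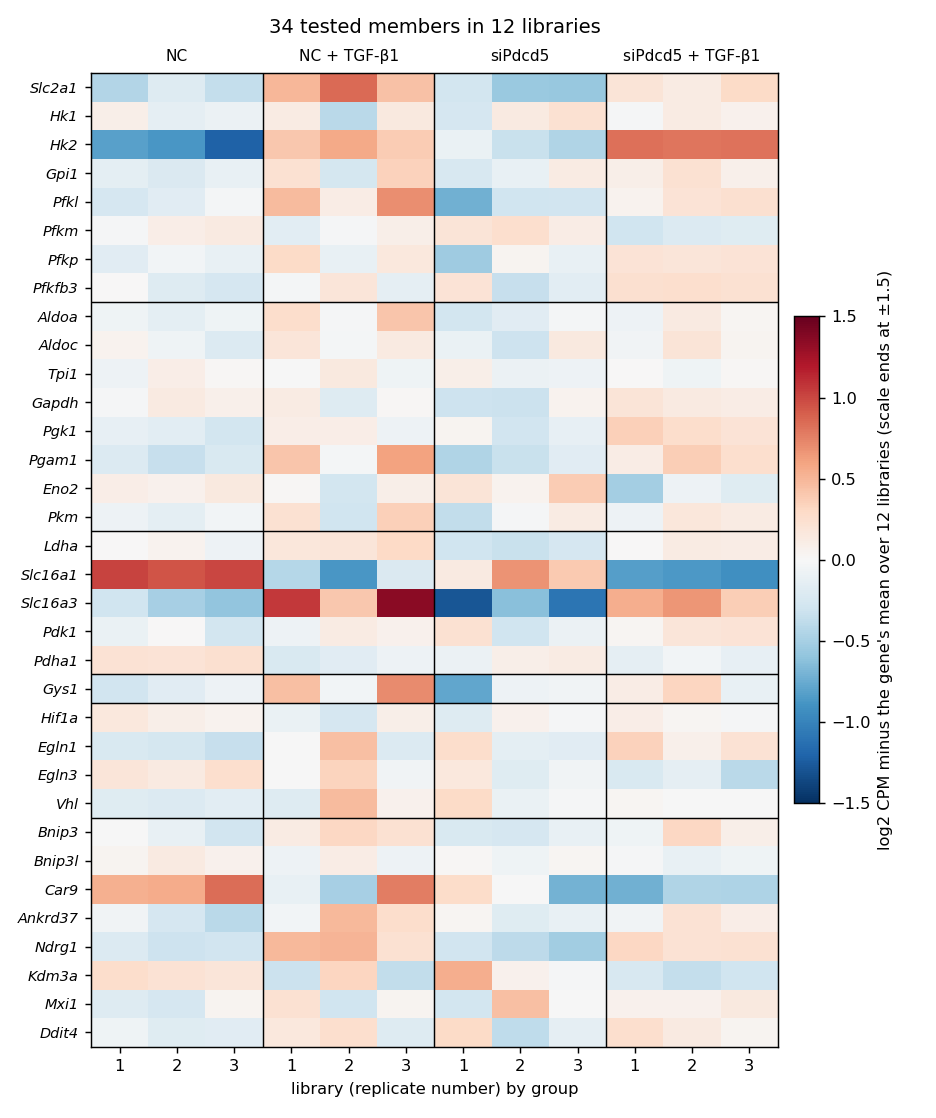
Heat map of the 34 tested members (rows, in pathway order with lines between the 6 roles) in the 12 libraries (columns, 3 per group), as log2 CPM minus the mean of the gene over all libraries, with red higher and blue lower. Hk2, Slc16a3 and Slc16a1 have the strongest contrast between libraries with and without TGF-β1, and NC + TGF-β1 replicate 2 differs from its group at Pkm, Gys1 and Vhl among others.

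Glucose enters these cells through transporters of which Slc2a1 encodes GLUT1. Its level was 40.7, 48.1 and 43.1 CPM in NC and 77.6, 99.3 and 74.4 CPM in NC + TGF-β1. In siPdcd5 cells it was 45.5, 37.5 and 37.1 CPM, and with TGF-β1 62.9, 59.9 and 67.0 CPM. Every TGF-β1-treated library was above every untreated one, with log2 fold changes of 0.93 ± 0.12 (SE) in NC cells (adjusted p = 0.000104) and 0.66 ± 0.12 in siPdcd5 cells (adjusted p = 0.00185), n = 3 per group. Slc2a1 lies on chromosome 4 (119108711 to 119137983, plus strand, GRCm38).

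Hexokinase traps glucose as its phosphate, and the members include the ubiquitous Hk1 and the inducible Hk2. Hk2 (chromosome 6, 82725025 to 82774454, minus strand) was at 22, 21.1 and 16.6 CPM in NC and at 51.0, 57.3 and 50.1 CPM in NC + TGF-β1. It was at 35.9, 30.7 and 28.2 CPM in siPdcd5 and at 68.3, 67.5 and 68.0 CPM in siPdcd5 + TGF-β1. The 4 groups did not overlap and stood in the order NC, siPdcd5, NC + TGF-β1 and siPdcd5 + TGF-β1. Hk2 rose 2.65-fold after TGF-β1 in NC cells (log2 1.41 ± 0.12, adjusted p = 1.8e-06) and 2.15-fold in siPdcd5 cells (log2 1.1 ± 0.12, adjusted p = 1.52e-05). Hk1 was at 147 to 171 CPM in NC and 122 to 178 CPM in NC + TGF-β1, with log2 fold changes of 0.02 ± 0.15 and 0 ± 0.15 in NC and siPdcd5 cells. The 2 hexokinase genes therefore differed in their response: within a library, log2 of Hk2 over Hk1 ran from −3.20 to −2.80 in NC and from −1.83 to −1.09 in NC + TGF-β1.

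Phosphofructokinase, the committed step of glycolysis, is built from liver (Pfkl), muscle (Pfkm) and platelet (Pfkp) subunits. Pfkl was at 68.7, 72.3 and 79.9 CPM in NC, 113, 88.4 and 132 CPM in NC + TGF-β1, 49.5, 66.3 and 67.0 CPM in siPdcd5, and 84.4, 94.0 and 96.2 CPM in siPdcd5 + TGF-β1. Treated and untreated libraries of each background did not overlap, and the log2 fold change was 0.59 ± 0.14 in both backgrounds (adjusted p = 0.0111 in NC and 0.0121 in siPdcd5 cells). The call was lost without NC replicate 1 (adjusted p = 0.058) and without siPdcd5 + TGF-β1 replicate 3 (adjusted p = 0.0504). Pfkm went the other way in siPdcd5 cells, from 45.9, 47.9 and 43.3 CPM to 32.6, 35.0 and 35.5 CPM after TGF-β1 (log2 −0.41 ± 0.10, adjusted p = 0.00877, or 0.0508 without siPdcd5 + TGF-β1 replicate 1). In NC cells Pfkm was at 39.8 to 44.1 CPM without and 36 to 42.8 CPM with TGF-β1, and these groups overlapped (log2 −0.10 ± 0.10, adjusted p = 0.585). Pfkp had log2 fold changes of 0.23 ± 0.14 in NC and 0.38 ± 0.14 in siPdcd5 cells and was not called, and all 75-base windows of its last 500 bases also occur in transcripts of Pitrm1, on the opposite strand. Gpi1, which isomerizes glucose phosphate, had 0.29 ± 0.13 and 0.19 ± 0.13, and Pfkfb3, which makes the activator of phosphofructokinase, had 0.15 ± 0.13 and 0.32 ± 0.13, neither of them called.

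**Figure D2:**
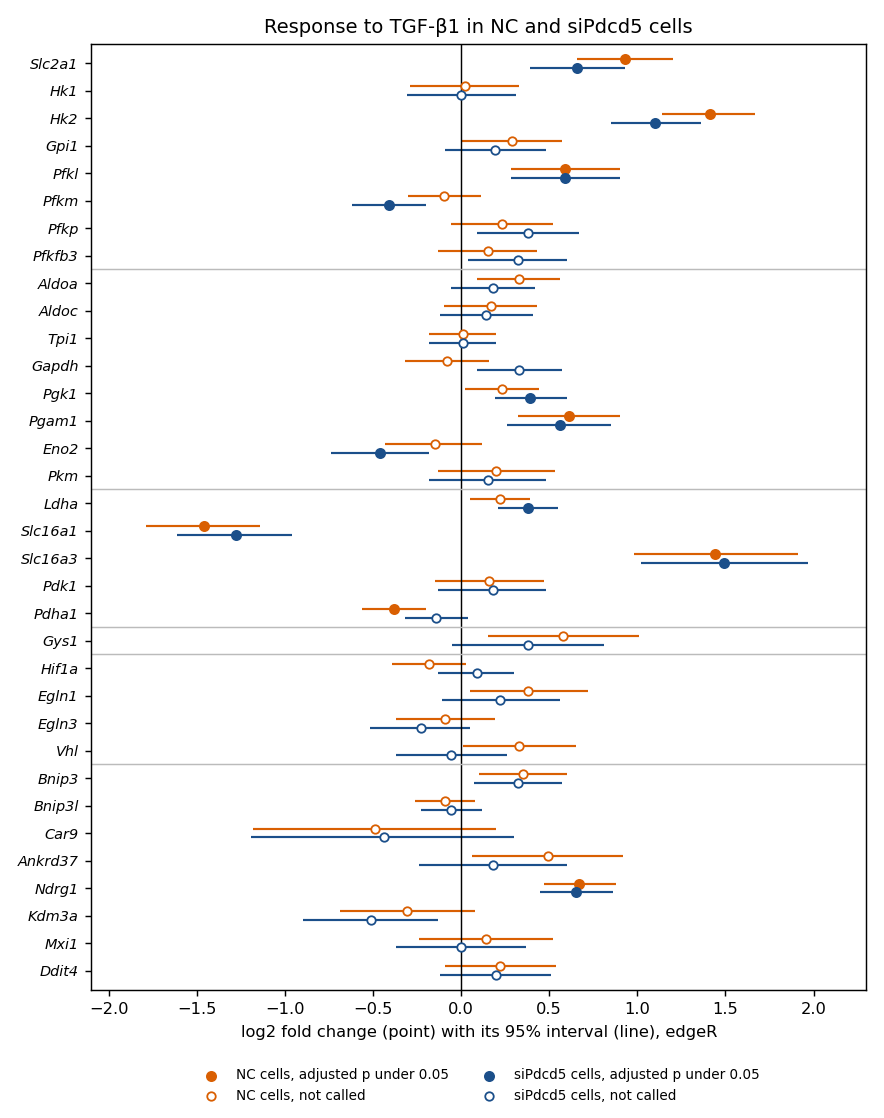
Log2 fold change of each tested member after TGF-β1 (x axis) with its 95% interval, in NC cells (orange) and siPdcd5 cells (blue), in pathway order from glucose uptake at the top to HIF-induced genes at the bottom. Filled points passed an adjusted p of 0.05. Slc2a1, Hk2, Pfkl, Pgam1, Slc16a3 and Ndrg1 lie to the right and Slc16a1 to the left in both backgrounds.

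Among the triose steps, Pgam1, the phosphoglycerate mutase, was the gene called in both backgrounds. It was at 323, 294 and 319 CPM in NC, 498, 366 and 565 CPM in NC + TGF-β1, 273, 296 and 332 CPM in siPdcd5, and 401, 482 and 442 CPM in siPdcd5 + TGF-β1. Treated libraries were all above the untreated ones of their background, with log2 fold changes of 0.61 ± 0.14 (adjusted p = 0.00608) and 0.56 ± 0.14 (adjusted p = 0.0112, or 0.0578 without siPdcd5 + TGF-β1 replicate 2). Pgk1, phosphoglycerate kinase, went from 136, 108 and 121 CPM in siPdcd5 to 169, 158 and 152 CPM in siPdcd5 + TGF-β1 (log2 0.39 ± 0.10, adjusted p = 0.0122), a call lost without siPdcd5 replicate 2 (adjusted p = 0.0563) or siPdcd5 + TGF-β1 replicate 1 (0.0635). In NC cells Pgk1 was at 109 to 121 CPM without and 125 to 141 CPM with TGF-β1 (log2 0.23 ± 0.10, adjusted p = 0.149). The neuronal enolase gene Eno2 went down in siPdcd5 cells, from 58.9, 53.3 and 66.8 CPM to 36.1, 48.9 and 45.2 CPM (log2 −0.46 ± 0.13, adjusted p = 0.0249). That call was lost without any 1 of siPdcd5 replicate 3 (adjusted p = 0.106), siPdcd5 + TGF-β1 replicate 1 (0.127) or siPdcd5 + TGF-β1 replicate 3 (0.0569).

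The remaining triose genes were not called. Aldoa, the main aldolase, was at 730 to 775 CPM in NC and 798 to 1080 CPM in NC + TGF-β1 (log2 0.33 ± 0.11, adjusted p = 0.0648), and Pkm, pyruvate kinase, was at 1160 to 1250 CPM and 1040 to 1640 CPM (log2 0.20 ± 0.15, adjusted p = 0.449). For these genes NC + TGF-β1 replicate 2 was the lowest of its group, at 798 CPM for Aldoa against 975 and 1080 CPM, and at 1040 CPM for Pkm against 1500 and 1640 CPM. Tpi1 was nearly level, with log2 fold changes of 0.01 ± 0.09 in both backgrounds and 95% intervals from −0.18 to 0.20. Aldoc had 0.17 ± 0.12 and 0.14 ± 0.12. Gapdh had −0.08 ± 0.11 in NC and 0.33 ± 0.11 in siPdcd5 cells (adjusted p = 0.0571), and since 84% of the 75-base windows of its last 500 bases occur in transcripts of 78 other annotated genes and multiple alignments were counted, its count of 71.0 to 102 CPM is uncertain. Eno1, the common enolase, had 1 read in all, and 62% of such windows of its 3′ end also occur in transcripts of other genes, Eno1b and a pseudogene. Eno1b was at 69.8 to 101 CPM.

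The reads of the 15 tested genes that encode glycolytic enzymes, from hexokinase to lactate dehydrogenase, summed to 3652, 3532 and 3657 CPM in NC and 4541, 3589 and 4902 CPM in NC + TGF-β1. In siPdcd5 cells the sum was 3173, 3542 and 3906 CPM, and with TGF-β1 3870, 4367 and 4167 CPM. Treated and untreated libraries overlapped in both backgrounds, by NC + TGF-β1 replicate 2 and by siPdcd5 replicate 3. Pkm and Aldoa together contributed 1663 to 2720 CPM to it. Enolase entered the sum only as Eno2, because Eno1 was not tested and Eno1b and Eno3 are not members. The uncertain count of Gapdh is part of the sum.

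At the end of the pathway, the 2 genes that encode lactate transporters moved in opposite directions. Slc16a3 encodes MCT4, a low-affinity carrier known for lactate export, and Slc16a1 encodes MCT1, a carrier that works in both directions and is often the importer. Slc16a3 (chromosome 11, 120948480 to 120960868, plus strand) was at 14.9, 12.9 and 12.1 CPM in NC and 38.0, 24.1 and 46.7 CPM in NC + TGF-β1, and at 7.53, 11.8 and 8.56 CPM in siPdcd5 and 26.7, 28.9 and 23.5 CPM in siPdcd5 + TGF-β1. The treated libraries were all higher, 2.72-fold in NC cells (log2 1.44 ± 0.22, adjusted p = 0.000272) and 2.82-fold in siPdcd5 cells (log2 1.49 ± 0.22, adjusted p = 0.000256). Slc16a1 (chromosome 3, 104638668 to 104658462, plus strand) was at 237, 226 and 235 CPM in NC and 87.2, 64.2 and 101 CPM in NC + TGF-β1, and at 129, 187 and 154 CPM in siPdcd5 and 66.4, 64.7 and 62.0 CPM in siPdcd5 + TGF-β1. The treated libraries were all lower, with a log2 fold change of −1.46 ± 0.15 in NC cells (adjusted p = 8.47e-06) and −1.28 ± 0.15 in siPdcd5 cells (adjusted p = 3.42e-05). Within a library, log2 of Slc16a3 over Slc16a1 was −4.13 ± 0.14 (SD, n = 3) in NC and −1.24 ± 0.15 in NC + TGF-β1, and −4.08 ± 0.09 in siPdcd5 and −1.29 ± 0.12 in siPdcd5 + TGF-β1. This ratio is read for its change and not for which transporter is the more abundant, since read counts are not set per length here.

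**Figure D3:**
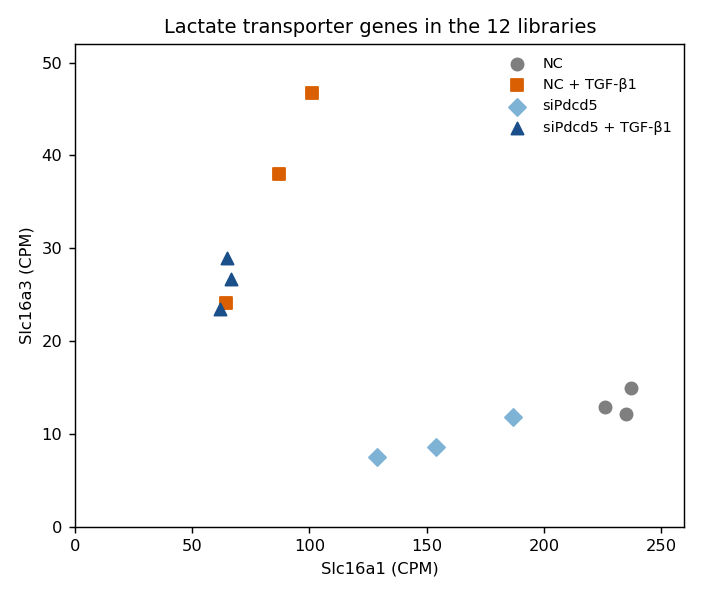
Each point is 1 library, placed by its CPM of Slc16a1 (x axis) and of Slc16a3 (y axis), with symbols for the 4 groups. The 6 libraries with TGF-β1 lie at 62.0 to 101 CPM of Slc16a1 and 23.5 to 46.7 CPM of Slc16a3, and the 6 without it at 129 to 237 CPM and 7.53 to 14.9 CPM.

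Ldha, the lactate dehydrogenase subunit that favours lactate formation, was at 314, 324 and 297 CPM in NC, 352, 353 and 384 CPM in NC + TGF-β1, 253, 247 and 262 CPM in siPdcd5, and 314, 339 and 337 CPM in siPdcd5 + TGF-β1. It rose in siPdcd5 cells (log2 0.38 ± 0.08, adjusted p = 0.00382), and in NC cells the groups did not overlap but the test was not passed (log2 0.22 ± 0.08, adjusted p = 0.0761). Pdha1, a subunit of the pyruvate dehydrogenase that feeds pyruvate into mitochondrial oxidation, fell in NC cells from 132, 131 and 135 CPM to 97.5, 101 and 108 CPM (log2 −0.38 ± 0.08, adjusted p = 0.00616). In siPdcd5 cells it was at 107 to 124 CPM without and 104 to 111 CPM with TGF-β1, and the groups overlapped (log2 −0.14 ± 0.08, adjusted p = 0.301). Pdk1, the kinase that inactivates pyruvate dehydrogenase and a well-known HIF target, was at 14.2 to 20.5 CPM over the 12 libraries, with log2 fold changes of 0.16 ± 0.14 and 0.18 ± 0.14. Gys1, the muscle-type glycogen synthase, had 0.58 ± 0.20 in NC cells (adjusted p = 0.0671) and 0.38 ± 0.20 in siPdcd5 cells.

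**Figure D4:**
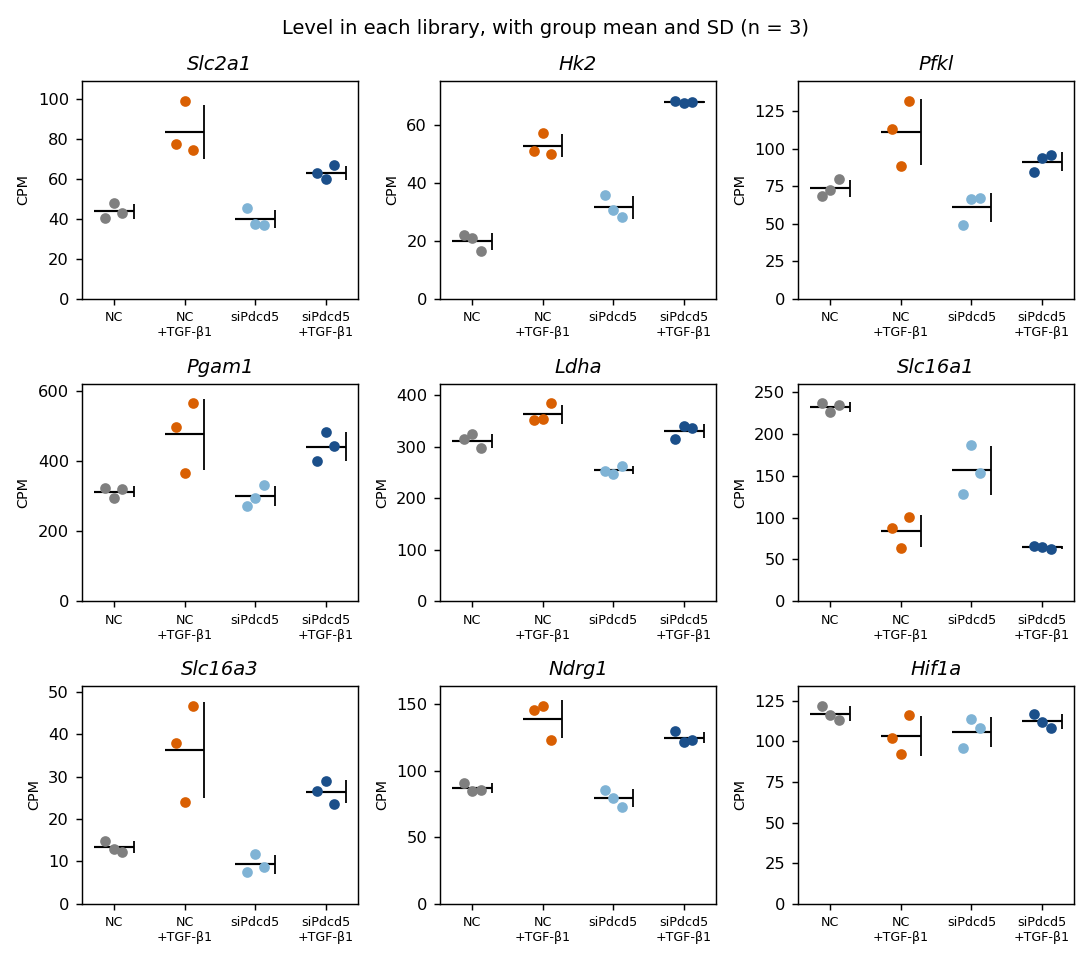
Points are the CPM of each library for 9 members, horizontal lines the mean of the 3 libraries of a group and vertical lines the SD, with every axis starting at 0. Slc2a1, Hk2, Pfkl, Pgam1, Slc16a3 and Ndrg1 are higher and Slc16a1 is lower in every TGF-β1-treated library than in the untreated libraries of the same background, while the Hif1a groups overlap.

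None of the 4 tested members that sense oxygen or make HIF-1 alpha was called in either TGF-β1 comparison. Over all genes 15.3% were called in NC cells and 16.1% in siPdcd5 cells, so that 0 of 4 says little. In NC cells 2 of the 4, Egln1 and Vhl, had an unadjusted p under 0.05 by edgeR, as had 3368 of all 12425 genes. Hif1a was at 113 to 122 CPM in NC, 92.0 to 116 CPM in NC + TGF-β1, 95.9 to 114 CPM in siPdcd5 and 108 to 117 CPM in siPdcd5 + TGF-β1, with log2 fold changes after TGF-β1 of −0.18 ± 0.10 and 0.09 ± 0.10. The prolyl hydroxylase genes had 0.38 ± 0.16 (Egln1, adjusted p = 0.128) and −0.09 ± 0.13 (Egln3) in NC cells, and 0.22 ± 0.16 and −0.23 ± 0.13 in siPdcd5 cells. Vhl, the ubiquitin ligase subunit, had 0.33 ± 0.15 and −0.06 ± 0.15. Egln1 and Vhl were highest in NC + TGF-β1 replicate 2 (77.8 and 44.0 CPM, against 49.6 to 57.0 and 27.7 to 33.1 CPM in the other 2 libraries).

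Of the 8 tested HIF-induced genes outside glycolysis, 1 rose in each background (12.5%). Over all genes 15.3% were called in NC cells and 16.1% in siPdcd5 cells, so that 1 of 8 says little. Ndrg1, a stress-induced gene named for N-myc, was at 91.1, 84.6 and 85.6 CPM in NC, 146, 149 and 123 CPM in NC + TGF-β1, 85.9, 79.8 and 72.7 CPM in siPdcd5, and 130, 122 and 123 CPM in siPdcd5 + TGF-β1. The treated libraries were all higher, with log2 fold changes of 0.67 ± 0.10 (adjusted p = 0.000174) and 0.65 ± 0.10 (adjusted p = 0.000241). The mitophagy receptor genes had 0.35 ± 0.12 in NC and 0.32 ± 0.12 in siPdcd5 cells for Bnip3 (adjusted p = 0.0604 and 0.0828), and −0.09 ± 0.08 and −0.06 ± 0.08 for Bnip3l. Bnip3 shares 64.8% of the 75-base windows of its 3′ end with 2 other annotated genes. Car9, carbonic anhydrase 9 and among the most HIF-dependent genes known, was low at 1.41 to 4.15 CPM (21 counts or more in each library) and had −0.49 ± 0.32 and −0.44 ± 0.35. Ankrd37 was at 3.22 to 5.98 CPM (0.49 ± 0.20 and 0.18 ± 0.20), and the histone demethylase gene Kdm3a had −0.31 ± 0.18 and −0.51 ± 0.18 (adjusted p = 0.303 and 0.0693). Mxi1, a MYC antagonist, had 0.14 ± 0.18 and 0 ± 0.17, and Ddit4, an inhibitor of mTORC1, had 0.22 ± 0.15 and 0.20 ± 0.15. Adm, adrenomedullin, was at 0 to 2 counts per library.

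NC + TGF-β1 replicate 2 set how many members passed in NC cells. Without it 10 members rose and 3 fell, against 20.2% of all genes called. The 5 added were Gpi1 (log2 0.44), Aldoa (0.44), Pkm (0.38) and Gys1 (0.76) upwards and Kdm3a (−0.57) downwards, and the 8 called with all libraries were again called. Without this library and siPdcd5 replicate 1 together, 12 rose and 3 fell in NC cells (29.1% of all genes called), and 12 rose and 4 fell in siPdcd5 cells (24.9% of all genes called). The omission of both was chosen after the data were seen. In both libraries Malat1 took 2.66% of the counts, against 2.06% to 2.36% in the other libraries of their groups and 2.9% in NC replicate 2, which did not stand apart, and the part of this in the calls was not tested.

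Other genes of the pathways, from 6 lists that hold 96 tested genes beside the members, are given by their counts. After TGF-β1 13 rose and 13 fell in NC cells (27.1%, against 15.3% of all genes). In siPdcd5 cells 12 rose and 9 fell (21.9%, against 16.1% of all genes). Of 17 other glycolysis genes 2 rose and 1 fell in NC cells (17.6%, median log2 fold change 0.22). In siPdcd5 cells 1 rose and 1 fell (11.8%), so that these shares were near those of all genes. Slc2a6, a lysosomal hexose transporter, rose in NC cells from 2.3 to 4.11 CPM to 5.38 to 7.68 CPM (log2 1.06 ± 0.26, adjusted p = 0.0101). Ldhd, which oxidizes D-lactate, fell in both (log2 −0.92 ± 0.22 and −1.05 ± 0.23). Of 13 genes of the pyruvate dehydrogenase complex and its control, 2 fell in NC cells and 1 in siPdcd5 cells. None of 11 pentose phosphate genes was called in either. An unadjusted p under 0.05 by edgeR was reached by 1 and 2 of the 11, and by 3368 and 3588 of all 12425 genes. Of 15 tested glycogen genes 1 rose and 3 fell in NC cells and 2 fell in siPdcd5 cells. Of 13 other genes of HIF and oxygen sensing 1 rose and 2 fell in each background, and Epas1, which encodes HIF-2 alpha, was below the filter at 0 to 0.614 CPM.

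Of these 6 lists, the largest share of calls was in that of 29 other HIF-induced genes. In NC cells 9 of them rose and 5 fell (48.3%, against 15.3% of all genes). In siPdcd5 cells 10 rose and 3 fell (44.8%, against 16.1% of all genes). Their median log2 fold changes were 0.08 and 0.15. Vegfa, the angiogenic growth factor, was at 66.5 to 79.5 CPM in NC and 134 to 176 CPM in NC + TGF-β1 (log2 1.11 ± 0.12, adjusted p = 1.05e-05). Edn1, endothelin-1, had log2 fold changes of 1.40 ± 0.15 and 1.89 ± 0.14, and Bhlhe40, a circadian repressor, 1.13 ± 0.21 and 0.76 ± 0.20. Downwards went Angptl4, an inhibitor of lipoprotein lipase (−1.18 ± 0.19 and −0.85 ± 0.19), and Dusp1, a MAP kinase phosphatase (−0.93 ± 0.18 and −1.07 ± 0.18). Several genes of this list are also induced by signals other than HIF, and the part of HIF in their changes was not tested.

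Few of the members were called after knockdown of Pdcd5, a share near that of all genes. Without TGF-β1, 1 of 34 members (2.94%) was called higher and none lower in siPdcd5 against NC, where 3.44% of all genes were called, 0.901% higher and 2.54% lower. The gene was Hk2, whose lowest siPdcd5 library (28.2 CPM) was above its highest NC library (22 CPM), with a log2 fold change of 0.67 ± 0.12 (1.59-fold, adjusted p = 0.00789). The call rested on NC replicate 3, the lowest, without which the log2 fold change was 0.54 and the adjusted p 0.0504. Slc16a1 and Ldha were next: Slc16a1 had −0.57 ± 0.15 (adjusted p = 0.0502) and Ldha −0.29 ± 0.08 (adjusted p = 0.0556), each with siPdcd5 libraries all below the NC ones. Slc16a1 passed under 7 of 14 alternative fits and Ldha under 3 of 14. The median log2 fold change over the members was −0.05 against 0.02 over all genes.

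With TGF-β1, no member was called by edgeR in siPdcd5 + TGF-β1 against NC + TGF-β1, while 1.55% of all genes were called, 0.33% higher and 1.22% lower. An unadjusted p under 0.05 was reached by 6 of the 34 members and by 1711 of all 12425 genes. DESeq2's Wald test also called none. Hk2 had 0.36 ± 0.12 (adjusted p = 0.162) and Slc2a1 −0.41 ± 0.12 (adjusted p = 0.133), both without overlap between the groups. Slc16a1 had −0.39 ± 0.15 and Slc16a3 −0.46 ± 0.21. This count also depended on the libraries that stood apart. Without NC + TGF-β1 replicate 2, Slc16a1 (log2 −0.55, adjusted p = 0.025) and Slc16a3 (−0.68, adjusted p = 0.0293) were called lower, against 2.55% of all genes called. Without that library and siPdcd5 replicate 1, 4 members were called higher (Hk2, Pfkfb3, Pgk1 and Egln1) and 5 lower (Pfkl, Aldoa, Slc16a1, Slc16a3 and Gys1), with 8.43% of all genes called. In the comparison without TGF-β1 the same omission gave Hk2 higher and Ldha and Slc16a1 lower, with 9.09% of all genes called.

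**Figure D5:**
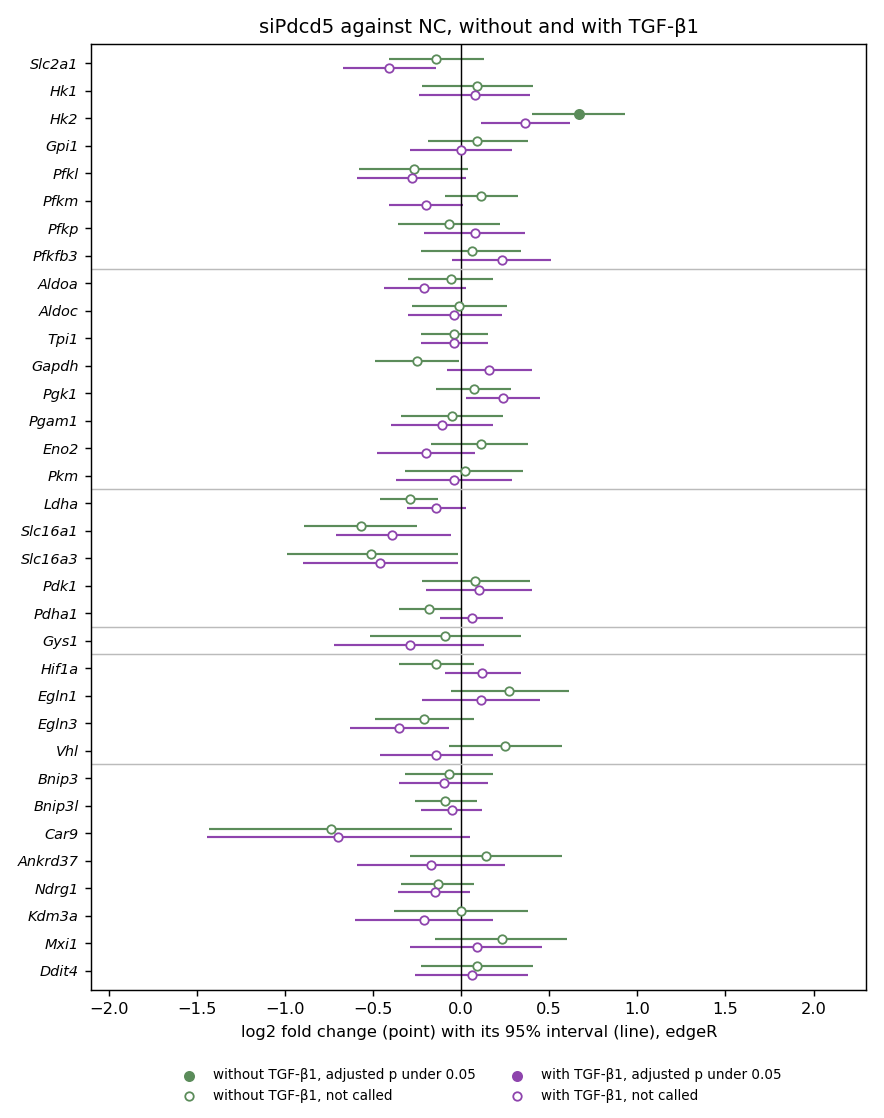
Log2 fold change of each tested member in siPdcd5 against NC (x axis) with its 95% interval, without TGF-β1 (green) and with TGF-β1 (purple), in pathway order. Hk2 without TGF-β1 is the only filled point, which marks an adjusted p under 0.05, and Slc16a1 lies left of 0 in both.

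Among the neighbouring genes knockdown lowered 6 of 96 without TGF-β1 (6.25%) and 2 of 96 with it (2.08%), and raised none. Over all genes 2.54% were called lower and 0.901% higher without TGF-β1, and 1.22% lower and 0.33% higher with it. P4ha1, a collagen prolyl hydroxylase subunit, was at 64.7 to 69.2 CPM in NC and 42.9 to 53.6 CPM in siPdcd5 (log2 −0.46 ± 0.11, adjusted p = 0.0338), and at 95.8 to 118 CPM in NC + TGF-β1 and 64.4 to 74.4 CPM in siPdcd5 + TGF-β1 (−0.57 ± 0.11, adjusted p = 0.0166). Ero1l, an oxidase of the endoplasmic reticulum, was at 72.3 to 85.2 CPM and 52.4 to 57.4 CPM (−0.47 ± 0.09, adjusted p = 0.00976), and at 124 to 135 CPM and 82.9 to 86.9 CPM with TGF-β1 (−0.61 ± 0.09, adjusted p = 0.00219). Both groups of libraries were apart in each comparison. Both genes rose after TGF-β1 in both backgrounds. The other genes called lower without TGF-β1 were the muscle enolase gene Eno3 (−0.51 ± 0.10), Cited2, which competes with HIF for its coactivators (−0.39 ± 0.09), Wsb1, a ubiquitin ligase subunit (−0.45 ± 0.11), and Pygl, liver glycogen phosphorylase, at 0.89 to 1.61 CPM in NC and 0.193 to 0.295 CPM in siPdcd5, near the detection floor.

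The response to TGF-β1 in siPdcd5 cells was set against that in NC cells by the interaction term of the same model. By edgeR 0 of 34 members were called, as 0% of all genes were, with a lowest adjusted p among members of 0.949. An unadjusted p under 0.05 was reached by 2 members, Pfkm (log2 difference −0.31 ± 0.14) and Gapdh (0.41 ± 0.16), and by 638 of all 12425 genes. DESeq2 called none of the members. For Hk2 the difference was −0.30 ± 0.17 (95% interval −0.67 to 0.06), for Slc2a1 −0.27 ± 0.18 (−0.64 to 0.11), for Slc16a1 0.18 ± 0.21 (−0.27 to 0.63) and for Slc16a3 0.05 ± 0.30 (−0.60 to 0.70). The 95% intervals of 33 members lay within ±1 on the log2 scale, and those of 20 members lay within 1.5-fold in either direction. Without NC + TGF-β1 replicate 2 and siPdcd5 replicate 1 the interaction called 1.59% of all genes and again no member.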

How the data were processed

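The 12 libraries of C22 RNA were 3′ end libraries made with the QuantSeq kit, and were grouped by their labels. The authors aligned single-end reads to mm10 with Bowtie2, per the submitters' processing notes, counted unique and multiple alignments with Bedtools, and deposited whole read counts per gene symbol, without normalization. Indices were made from the genome or from representative transcripts. The annotation and the use of strand are not given in the sources used here.

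Genes were filtered with edgeR's filterByExpr, scaled by TMM and fitted in 1 model with 4 groups by the quasi-likelihood functions of edgeR 4.0.16 in R 4.3.3 (square root of the common dispersion 0.132). P-values were adjusted over all 12425 genes tested, and an adjusted p under 0.05 was called. Log2 fold changes carry their standard errors, and CPM use TMM-scaled library sizes. The fit was tested on simulated data with known changes for the TGF-β1 comparisons only. Every member is accounted for, a neighbouring gene is named if called with an absolute log2 fold change of at least 1 after TGF-β1 or if called after knockdown, and the members and lists were chosen with earlier results of these data known. Genes named for fits without the libraries that stood apart were chosen after their values were seen. Counts carry no molecular identifiers, so the floor of 3 counts covers counting error only. The 44 rows that repeat a symbol were kept as separate genes.

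Gene positions and shared 75-base windows come from GENCODE vM21 (GRCm38) and promoters from RefSeq (GRCm38.p6). Alternatives were DESeq2 1.42.0, limma-trend after quantile normalization (limma 3.58.1), upper-quartile factors, other filters, only the 6 libraries compared, the replicate number as a block, each library left out, and, added after seeing the data, 2 libraries left out together. Library pairs of a group differed beyond sampling noise (chi-square per degree of freedom 4.35 to 61.5).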

Additional observations from a re-analysis of the deposited data

How the results depend on the processing

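Of 20 calls of a member in a comparison, none changed direction under any of the alternatives, 13 were called under every one, and in 270 of 280 refits the call was kept. The 10 losses were all from leaving out 1 library. The number of members called after TGF-β1 in NC cells ranged from 7 to 13 over the fits that leave out 1 library (8 with all, 13 without NC + TGF-β1 replicate 2) and was 15 without the 2 libraries farthest from their groups. In siPdcd5 cells it ranged from 8 to 12. For knockdown without TGF-β1 the 1 call became 2 with upper-quartile factors, without a filter and with only the 6 libraries compared, and 3 with DESeq2, with at least 10 counts in every library and without the 2 libraries, and ranged from 0 to 2 over fits without 1 library. For knockdown with TGF-β1 it ranged from 0 to 2, and was 9 without the 2 libraries. The cause was not tested, beyond the omission itself. The interaction called 0 members under every alternative, also over the fits that leave out 1 library (0 to 0), while DESeq2 called 15 genes in all. The replicate block left the counts at 8, 11, 1, 0 and 0 members. The mean correlation of same-numbered libraries was −0.14 to 0.113, and in no comparison were all 3 pairs over 0.1, so the numbers were not taken as pairs. Members with GCGTG in the window numbered 20, and 19 held ACGTG when the window ended at the start. At these depths the interaction's median 95% half-width was 0.40 on the log2 scale.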

Other observations

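The 2 libraries that stood apart, NC + TGF-β1 replicate 2 and siPdcd5 replicate 1, belong to different groups and share no treatment, yet their deviations from the other 2 libraries of their groups ran together over the members (Pearson r = 0.71 across 34 genes, given as a description because genes of a library are not independent). More than 0.25 below the group on the log2 scale in both were 8 members, Hk1, Pfkl, Pfkp, Pkm, Slc16a1, Slc16a3, Mxi1 and Gys1, and more than 0.25 above it in both were 7, Slc2a1, Pfkfb3, Egln1, Egln3, Vhl, Kdm3a and Ddit4. Car9 was below in NC + TGF-β1 replicate 2 and above in siPdcd5 replicate 1. Gys1 was 0.63 lower in the one and 0.72 lower in the other, and Kdm3a 0.67 and 0.52 higher.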
